A study of Mus musculus with 39 samples.

Results

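The response of sorted striatal microglia to LPS was measured in adult mice exposed to maternal immune activation (MIA) before birth, in the arm without PLX. The comparison takes the libraries whose labels read MIA_CON_LPS (6 libraries) and MIA_CON_SAL (4 libraries), 10 of the 39 in the series, and is written MIA:CON below. PLX is a term of the labels that they do not define. All 10 libraries came from males aged 8 to 10 weeks. The LPS group received 4500 endotoxin units per gram of body weight into the peritoneum, the saline group received saline, and cells were taken 18 hours after either injection. Prenatal MIA is shared by both groups, so the comparison holds it constant. After papain digestion the sort kept live cells with CD11b, P2RY12 and little CD45 on their surface, and a cell without surface P2RY12 falls outside that gate. RNA was amplified linearly, without strand and without removal of ribosomal RNA. Nothing in the labels says whether each library is its own animal, and p-values cover only the spread among the libraries, technical or not.

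Microglia are the resident macrophages of the brain. LPS, an outer membrane component of Gram-negative bacteria, is sensed by CD14 and the TLR4 complex, which signal to NF-kB and to the interferon regulatory factors. Interferon released in turn acts through STAT2 and IRF9 on genes with an interferon-stimulated response element. Genes such as P2ry12, Tmem119 and Sall1 mark unstimulated microglia and depend on TGF-beta signals, and inflamed microglia commonly carry less of their RNA. MIA is an experimental model of infection during pregnancy.

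Totals ran from 1837849 to 4484878 counts in the LPS libraries and from 2190526 to 4099621 in the saline libraries. Mitochondrial ribosomal RNA took 16.9 ± 2.12% of counts after LPS and 12.6 ± 0.463% after saline (SD, n = 6 and 4, exact permutation p = 0.00952, adjusted over 12 library quantities 0.0857, two-sided, and p = 0.00794, adjusted 0.0476, for 17.6 ± 1.41% after LPS without replicate 6). Markers of the sort were present in every library: Itgam, which encodes CD11b, lay at 1104, 1391 and 1928 CPM (lowest, median and highest) after LPS and at 1750.4, 1620.3, 1482 and 1404 CPM after saline, and Ptprc, which encodes CD45, at 446, 641 and 718 CPM after LPS and at 626, 525, 468 and 589 CPM after saline. CPM is a count scaled to a common library total, after adjustment of the totals between libraries. Neither gene passed the test. P2ry12, which encodes the other marker of the sort, was lower after LPS. It lay at 240 to 444 CPM in LPS replicates 1 to 5 and at 1780 CPM in replicate 6, against 2675 to 2880 CPM after saline. Of 8 genes of the sort gate and the microglial label, 0 were higher and 3 lower (0 and 4 without replicate 6). Replicate 6 of the LPS group stands apart. It differed from a library titled as MIA:PLX saline replicate 1, whose title says that it is to be excluded, only slightly beyond sampling noise (a chi-square statistic, divided by its degrees of freedom, of 1.53 in 11605 genes, against 3.6 for the next closest of 55 pairs and at least 8.94 between replicate 6 and the other libraries of the comparison). By the same statistic replicate 6 lay nearer to the saline libraries (8.94 to 11.6) than to the other LPS libraries (14.9 to 29.7). Counts are therefore given with and without replicate 6, as are the values of many of the leading genes. A list given with 1 pair of counts had the same counts without it. Of the 157 genes named here, figures included, 1 call ended without replicate 6 (Il6) and 4 began (Il1b, Irf8, Ccr2 and Stx6).

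LPS changed the level of 3403 of 13420 genes tested (25.4%), of which 1941 were higher (14.5%) and 1462 lower (10.9%) by edgeR's quasi-likelihood test with Benjamini-Hochberg adjustment at 0.05. Without replicate 6 the counts were 2274 higher (17%) and 1932 lower (14.5%) of 13356. More than 2-fold changes made up 1113 of the higher and 836 of the lower genes, against 1345 and 1258 without replicate 6. Of the genes called with all libraries, 1933 higher and 1445 lower genes were called the same way without replicate 6, and 0 the opposite way. The median log2 fold change over all genes was 0.03. All 6 LPS libraries lay above all saline libraries for 1200 genes (8.94%) and below them for 1136 (8.46%). For replicates 1 to 5 the counts were 1653 (12.3%) and 1714 (12.8%). Leaving out replicate 6 moved the falls more than the rises: the median gain in the size of the log2 fold change was 0.17 over the lower and 0.09 over the higher genes. The log2 fold change of the fructose transporter gene Slc2a5 was -2.42 ± 0.65 with all libraries and -3.67 ± 0.60 without (SE), and that of the scavenger receptor gene Msr1 was 7.25 ± 0.52 and 7.43 ± 0.49.

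**Figure D1:**
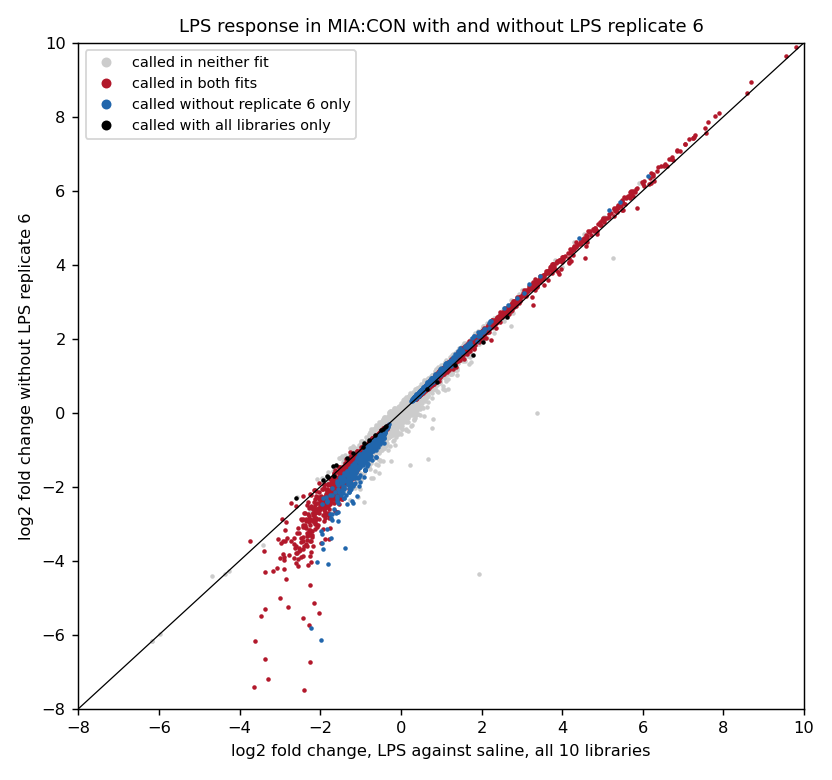
Log2 fold change of each gene tested, LPS against saline in MIA:CON, with all 10 libraries (x axis) and without LPS replicate 6 (y axis). Called rises lie close to the diagonal and many called falls lie under it, as for Slc2a5 at -2.42 and -3.67, and 0 genes are called opposite ways.

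To place each library, genes were taken that passed the test in the same direction, by more than 2-fold, in all of the other 3 arms (CON:CON, CON:PLX and MIA:PLX), which share no library with MIA:CON. Of 723 genes higher in those arms, 643 were higher in MIA:CON (655 without replicate 6), and of 565 lower genes 490 were lower (526 without replicate 6). The mean log2 CPM of the higher genes was 5.20, 5.16, 5.03, 5.19, 4.95 and 4.44 in LPS replicates 1 to 6, and 3.14, 3.07, 3.06 and 3.17 in saline replicates 1 to 4. That of the lower genes was 2.63, 3.53, 3.61, 3.02, 3.21 and 4.68 in the LPS libraries, and 5.13, 5.19, 5.17 and 5.14 in the saline libraries. Replicate 6 stood 66.5% of the way from the saline mean to the mean of LPS replicates 1 to 5 on the higher genes and 24.5% of the way on the lower genes, while replicates 1 to 5 stood at 92.3% to 104% and 78.9% to 129%. The library marked for exclusion stood at 58.4% and 19.1%. Among single genes the median position of replicate 6 in CPM was 38.5% of the way for the higher genes and 42.1% for the lower genes.

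**Figure D2:**
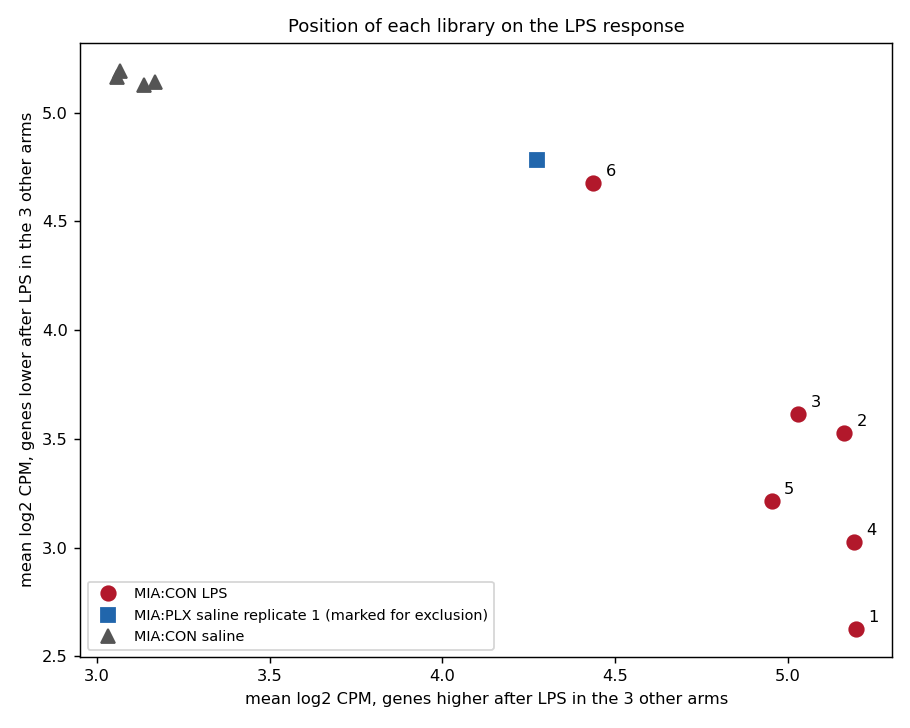
Mean log2 CPM of genes lower (y axis) against genes higher (x axis) after LPS in the other 3 arms, for the 6 LPS libraries (red circles, numbered by replicate), the library marked for exclusion (blue square) and the 4 saline libraries (grey triangles). LPS replicates 1 to 5 lie at 4.95 to 5.20 on the x axis, replicate 6 at 4.44 beside the marked library at 4.27, and the saline libraries at 3.06 to 3.17.

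The genes that rose furthest by fold change were of varied function. Trem1, an amplifier of myeloid activation, lay at 21.2, 26.6 and 42.1 CPM (lowest, median and highest) after LPS and at 0 in the 4 saline libraries, at least 122-fold higher against 3 counts over the saline group. Il1r2, the decoy receptor for interleukin 1, lay at 14.2, 76.7 and 216 CPM after LPS and at 0.481, 0, 0 and 0.318 CPM after saline, a count ratio of 489.5 (95% interval 167 to 2376). Intervals and bounds cover counting error only. In both genes every LPS library lay above every saline library. Saa3, an acute-phase serum amyloid, lay at 54.7, 204 and 389.9 CPM after LPS and at 2.65, 0, 0 and 0 CPM after saline, a log2 fold change of 7.89 ± 1.16 (SE, adjusted p = 1.93e-05 by edgeR, 8.09 ± 1.15 without replicate 6). The saline value of Saa3 rests on replicate 1 alone. Without that library all other saline libraries were at 0, and Saa3 was at least 582-fold higher.

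Msr1, which takes up modified lipoproteins, had 162, 492 and 627 CPM after LPS and 3.37, 2.63, 1.94 and 3.5 CPM after saline (log2 fold change 7.25 ± 0.52, adjusted p = 5.21e-12 by edgeR). The lowest LPS library, replicate 6, was far above the highest saline library. Marco, another scavenger receptor, reached 193 CPM in LPS replicate 1 and lay between 3.49 and 19.98 CPM in the other 5, with 0.481, 0, 0 and 0 CPM after saline, a count ratio of 179 (95% interval 49.2 to 1481). For Plet1, a surface glycoprotein, the count ratio was 248 (95% interval 84.6 to 1204). For Map3k6, a stress-activated kinase, it was 126 (95% interval 43.0 to 615). Il18rap, a subunit of the interleukin 18 receptor, rose by 6.60 ± 0.68 on the log2 scale, with 45.2, 76.3 and 129.7 CPM after LPS and 0, 2.19, 0.968 and 0.637 CPM after saline. In Msr1, Marco, Plet1, Map3k6 and Il18rap, LPS replicates 1 to 5 were above saline by the choice of genes. Replicate 6 was above saline too in each of them.

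**Figure D3:**
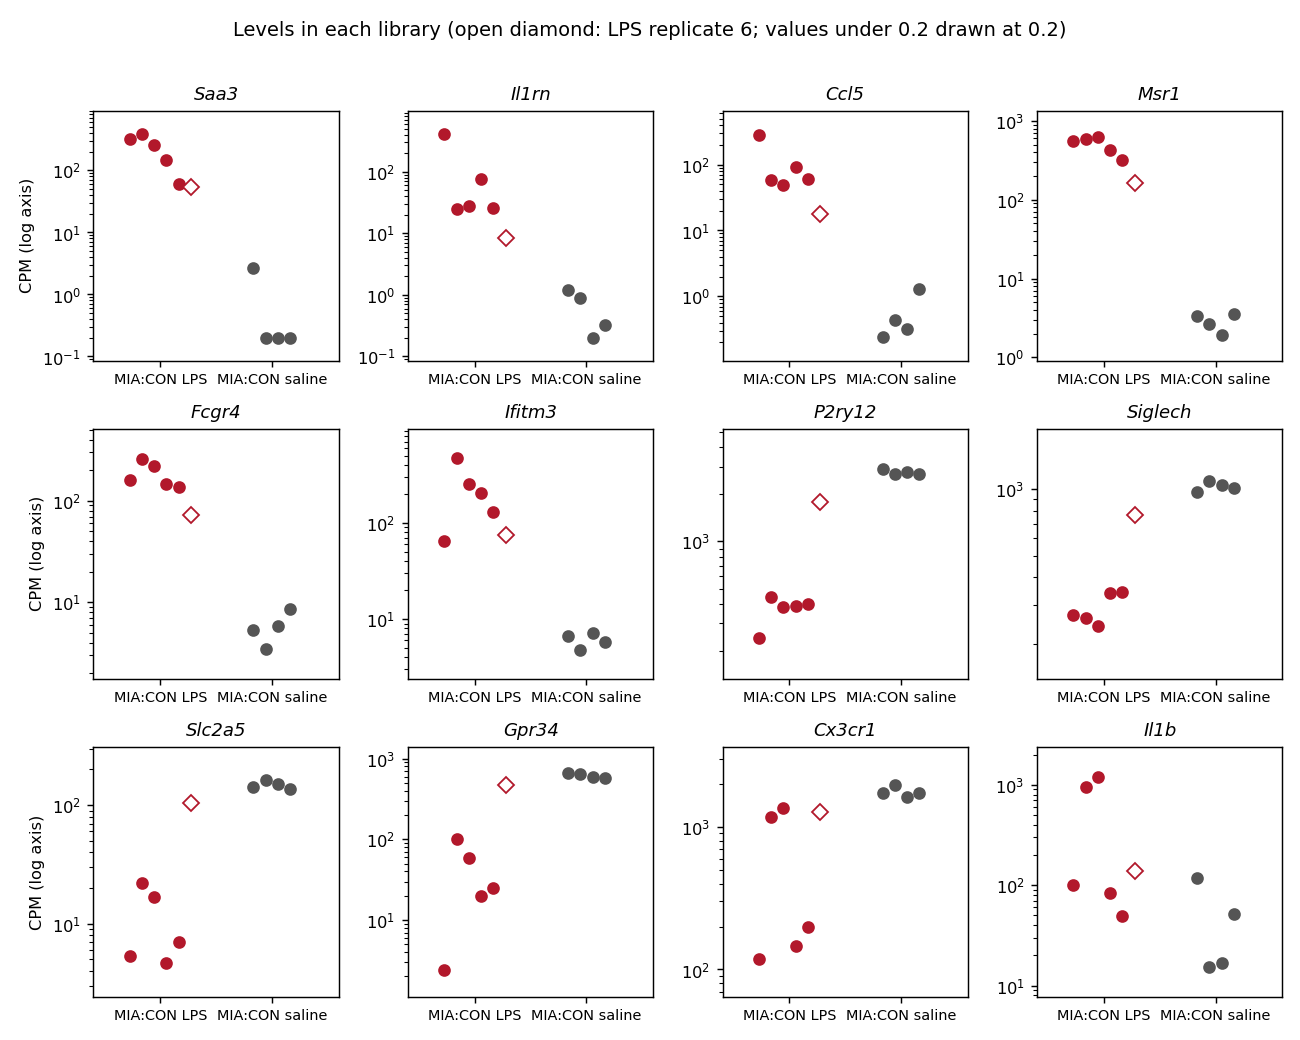
CPM on a log axis of 12 genes in each MIA:CON library, LPS libraries on the left in red and saline libraries on the right in grey, with LPS replicate 6 as an open diamond and values under 0.2 drawn at 0.2. In the first 6 genes all LPS libraries lie above the saline libraries, in P2ry12, Siglech, Slc2a5 and Gpr34 replicate 6 lies between the other LPS libraries and saline, and in Cx3cr1 and Il1b the LPS libraries spread widely.

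Counts of each list from here on are to be read beside the 14.5% higher and 10.9% lower among all genes tested. Without replicate 6 these shares were 17% and 14.5%. Genes of LPS sensing moved unequally. Of 16 tested members of the list, 4 were higher and 1 lower (5 and 1 without replicate 6), with a median log2 fold change of 0.27. Cd14, the coreceptor that hands LPS to TLR4, had 322, 708 and 877 CPM after LPS and 144, 138, 94.9 and 109 CPM after saline, a rise of 2.43 ± 0.43 on the log2 scale (adjusted p = 0.000124 by edgeR, 2.58 ± 0.43 without replicate 6). Cd180, a TLR4 relative that restrains LPS signalling in macrophages, had 146, 178 and 458 CPM after LPS and 696, 787, 759.6 and 702 CPM after saline, a change of -1.71 ± 0.26 (adjusted p = 1.05e-05, -2.04 ± 0.23 without replicate 6). Both groups were apart in both genes, with replicate 6 the LPS library nearest to saline. Tlr4 itself did not pass the test (-0.20 ± 0.36, adjusted p = 0.719 by edgeR). Its LPS libraries lay at 36.7, 193, 162, 44.0, 55.0 and 118 CPM, on both sides of the saline libraries at 131, 103, 124 and 113. The kinase gene Irak1 rose by 0.66 ± 0.17 and Irak3, a brake on TLR signalling, by 2.72 ± 0.81. Irak3 reached 94.8 CPM in LPS replicate 1 against 9.41 to 18.9 in the other LPS libraries, and without replicate 1 its change was 1.77 and did not pass (adjusted p = 0.0716 by edgeR).

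Among the other Toll-like receptors 3 of 11 were higher and 2 lower, with and without replicate 6, against 14.5% and 10.9% of all genes tested. Tlr2, which senses bacterial lipoproteins, rose by 2.39 ± 0.37, Tlr7, a sensor of single-stranded RNA, by 1.82 ± 0.35 and Tlr13, a sensor of bacterial ribosomal RNA, by 0.70 ± 0.14. Tlr5, the flagellin receptor, fell (-1.38 ± 0.30). Tlr7 lay at 548 CPM in LPS replicate 3 and at 1518 to 3238 CPM in the other 5, against 464, 518, 497 and 832 CPM after saline, so that replicate 3 alone overlapped the saline libraries.

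NF-kB targets and inflammatory mediators were mostly higher. Of 26 tested members 17 were higher and 0 lower, with and without replicate 6, and the median log2 fold change was 1.65. Bcl3, a nuclear partner of NF-kB p50 and p52, had the smallest p of the list. It lay at 14.1, 35.5 and 74.0 CPM after LPS and at 3.37, 3.07, 1.29 and 5.1 CPM after saline, a rise of 3.53 ± 0.44 on the log2 scale (adjusted p = 3.47e-07 by edgeR, 3.71 ± 0.41 without replicate 6), with no overlap. Its promoter is printed because it was the member with the smallest p whose window held the NF-kB consensus. The window runs from 250 bases before the transcription start to 50 after it, from RefSeq on GRCm38.p6, chr7:19822706-19823005, minus strand. Capitals mark the NF-kB match, which was found on the opposite strand at bases 253 to 262 of the window, just inside the transcript.
Bcl3: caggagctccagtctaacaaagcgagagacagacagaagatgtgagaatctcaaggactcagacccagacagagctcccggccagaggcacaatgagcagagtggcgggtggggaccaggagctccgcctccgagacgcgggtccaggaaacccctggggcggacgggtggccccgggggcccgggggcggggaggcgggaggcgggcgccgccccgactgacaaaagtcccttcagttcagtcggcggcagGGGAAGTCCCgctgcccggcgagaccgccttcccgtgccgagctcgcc
The consensus was present in 9 of 21 list members with a promoter in the table (42.9%), on either strand. It was present in 7.27% of all genes higher after LPS, in 6.61% of genes lower and in 6.09% of all genes tested. Over all 27025 promoters, which include genes not tested, the share was 5.14%. A match is a description of these letters.

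Lcn2, a siderophore-binding lipocalin, rose by 6.26 ± 1.19 (23.5, 89.0 and 134 CPM after LPS, 3.13, 0, 0 and 0.318 CPM after saline) and Cebpb, a transcription factor of the acute phase, by 2.13 ± 0.40. Tnf, the inflammatory cytokine, lay at 251, 485 and 1097 CPM after LPS and at 88.1, 74.2, 55.8 and 96.2 CPM after saline (log2 fold change 2.95 ± 0.76, adjusted p = 0.00483 by edgeR, 3.11 ± 0.77 without replicate 6). The groups did not overlap in any of these. Il6, a cytokine, lay at 11.3, 20.4 and 38.6 CPM after LPS and at 6.26, 5.27, 3.23 and 7.64 CPM after saline, a change of 2.03 ± 0.77 that just passed (adjusted p = 0.0494) and did not pass without LPS replicate 2, 4, 5 or 6 or any 1 of the saline libraries (1.83 to 2.22, adjusted p = 0.0514 to 0.125 by edgeR). Nfkb1, the NF-kB p50 subunit gene, did not pass (-0.09 ± 0.23).

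Within the interleukin 1 system 8 of 13 tested genes were higher and 0 lower (9 and 0 without replicate 6). Besides Il1r2, the receptor antagonist Il1rn rose by 7.15 ± 1.68, with 415 CPM in LPS replicate 1, 8.23 in replicate 6 and 24.7 to 75.2 in the other 4, against 1.2, 0.878, 0 and 0.318 CPM after saline. Casp1, the protease that matures interleukin 1 beta and interleukin 18, rose by 0.84 ± 0.16, and Il18bp, which neutralises interleukin 18, by 1.25 ± 0.31. Il1b, the precursor of interleukin 1 beta, did not pass with all libraries (3.05 ± 1.19, adjusted p = 0.0566 by edgeR) and passed without LPS replicate 5 (3.29) or 6 (3.24 ± 1.22) or saline replicate 1 (3.91, adjusted p = 0.0488). It also passed by DESeq2 (3.02, adjusted p = 0.0103) and by edgeR on the 10 libraries alone (2.98, adjusted p = 0.0482). Under the other planned settings that kept all 10 libraries it was not called. Its LPS libraries lay at 100.1, 959, 1198, 83.7, 48.9 and 139 CPM, and its saline libraries at 117, 15.4, 16.8 and 51.3. Replicates 2 and 3 were far above all others, and saline replicate 1 overlapped the remaining LPS libraries. Gsdmd, which encodes the pore-forming gasdermin D, did not pass (-0.19 ± 0.25).

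Of 14 tested chemokine genes 12 were higher and 0 lower (12 and 1 without replicate 6). The median log2 fold change was 3.12, or 2.97 with Cxcl1, at 0 in all saline libraries, put at its bound. Cxcl1, a neutrophil attractant, was at least 7.66-fold higher and did not pass without LPS replicate 2 or any 1 of the saline libraries (adjusted p = 0.05002 to 0.068 by edgeR). Ccl5, which recruits T cells and monocytes, lay at 17.6, 59.7 and 286 CPM after LPS and at 0.241, 0.439, 0.323 and 1.27 CPM after saline (7.29 ± 1.21, adjusted p = 6.16e-05 by edgeR, 7.51 ± 1.18 without replicate 6). Cxcl2, of the same class as Cxcl1, rose by 4.82 ± 1.03, the membrane-bound Cxcl16 by 1.74 ± 0.36 and the interferon-induced Cxcl10 by 3.26 ± 0.80. For Ccl5, Cxcl2 and Cxcl16 the groups were apart. Ccl5 is among the genes named for the largest rises, where this was required of LPS replicates 1 to 5. For Cxcl10 LPS replicate 6 (27.1 CPM) lay under the highest saline library (29.6 CPM). Ccl2, a monocyte attractant, rose by 2.56 ± 0.82 with 169 and 319 CPM in LPS replicates 2 and 3, 4.81 to 27.0 CPM in the other 4 and 26.2, 9.21, 13.6 and 14.01 CPM after saline. It did not pass without LPS replicate 3 (1.64, adjusted p = 0.0918) or without saline replicate 2, 3 or 4 (2.37 to 2.50, adjusted p = 0.0561 to 0.0596 by edgeR). Ccl9 did not pass (0.94 ± 0.51).

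Nearly all of the interferon-stimulated list rose: 31 of 32 tested genes were higher and 0 lower, with and without replicate 6, and the median log2 fold change was 2.38 (2.45 without). Only Ifit3b did not pass (1.78 ± 0.86), and it has a near-identical copy, as do many members of the interferon-induced, Ms4a and MHC families below, so that values of such members are uncertain. Rtp4, a chaperone of membrane proteins, lay at 33.8, 59.6 and 85.1 CPM after LPS and at 3.85, 4.83, 4.84 and 7.32 CPM after saline (3.51 ± 0.44, adjusted p = 4.75e-07 by edgeR). Zbp1, a sensor of left-handed nucleic acid, rose by 4.54 ± 0.59, Xaf1, a partner of the apoptosis inhibitor XIAP, by 2.28 ± 0.32, Ifit1, which binds viral RNA caps, by 4.37 ± 0.72 and the ubiquitin-like Isg15 by 2.60 ± 0.45. In all 5 genes the 6 LPS libraries lay above the saline libraries.

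Ifitm3, which blocks entry of enveloped viruses, lay at 64.6, 473, 257, 207, 131 and 75.9 CPM after LPS and at 6.74, 4.83, 7.1 and 5.73 CPM after saline, a rise of 5.03 ± 0.63 (adjusted p = 8.56e-07 by edgeR, 5.20 ± 0.62 without replicate 6). The lowest LPS libraries were replicates 1 and 6, still well above saline. Its promoter is printed because it had the smallest p among members of the list whose window held the interferon-stimulated response element searched, a pair of GAAA runs with 2 bases between them, on either strand. The window is chr7:141010695-141010994, minus strand, on GRCm38.p6 from RefSeq, again from 250 bases before the start to 50 after it. Capitals mark both matches, the first of them at bases 253 to 262 of the window.
Ifitm3: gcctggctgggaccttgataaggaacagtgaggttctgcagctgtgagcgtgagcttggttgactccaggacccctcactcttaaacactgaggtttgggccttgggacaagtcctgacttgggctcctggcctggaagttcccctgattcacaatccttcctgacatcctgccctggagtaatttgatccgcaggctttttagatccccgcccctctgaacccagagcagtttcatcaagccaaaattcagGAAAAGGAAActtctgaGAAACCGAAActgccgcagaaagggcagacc
This motif was present in 13 of 24 list members with a promoter in the table (54.2%). It was present in 7.07% of all genes higher after LPS, in 3.1% of genes lower, in 3.98% of all genes tested and in 3.99% of all promoters.

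Genes that carry the interferon signal rose in part. Of 18 genes of the JAK, STAT and SOCS list 9 were higher and 0 lower (10 and 0 without replicate 6). Stat2 lay at 104, 188 and 264 CPM after LPS and at 37.3, 34.2, 32.6 and 44.6 CPM after saline (2.35 ± 0.30, adjusted p = 4.75e-07 by edgeR), and Stat3 rose by 1.37 ± 0.21. Usp18, which restrains interferon receptor signalling, rose by 2.40 ± 0.53. Of 9 interferon regulatory factors 3 were higher and 0 lower (3 and 1 without replicate 6), with a median log2 fold change of -0.29 (-0.34 without). Those higher were Irf7, the amplifier of type I interferon, at 3.09 ± 0.41, Irf1 at 1.38 ± 0.34 and Irf9 at 0.59 ± 0.17. Irf9 did not pass without saline replicate 1 (0.50, adjusted p = 0.0526 by edgeR). Irf8, a lineage factor of macrophages, was not called with all libraries (-0.40 ± 0.17) and was lower without replicate 6 (-0.47 ± 0.18, adjusted p = 0.0392) or LPS replicate 3 (-0.47).

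In the interferon-induced families, 10 of 15 GTPase genes (11 without replicate 6), 6 of 9 Ifi200 DNA sensors (7) and 4 of 6 Schlafen genes (5) were higher and 0 were lower. Ifi207 lay at 172, 257 and 365 CPM after LPS and at 5.78, 3.07, 2.91 and 4.14 CPM after saline, a rise of 6.02 ± 0.39 (adjusted p = 2.2e-13 by edgeR). Ifi204 rose by 4.84 ± 0.36, Ifi211 by 5.82 ± 0.67 and Ifi209 by 2.78 ± 0.48. The GTPase genes Gbp2, Irgm1 and Iigp1, which act against intracellular pathogens, rose by 3.48 ± 0.57, 2.07 ± 0.35 and 3.85 ± 0.88, and Slfn5 and Slfn2 by 4.71 ± 0.51 and 3.54 ± 0.45. Ifi203 (0.37 ± 0.92) and Gbp8 (-0.46 ± 0.81) did not pass.

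Antigen presentation by MHC class I rose in part, 9 of 18 genes higher and 0 lower (11 and 0 without replicate 6). B2m, the shared light chain, lay at 2755, 3750.5 and 4329 CPM after LPS and at 1806, 1444, 1539 and 1752 CPM after saline (1.14 ± 0.17, adjusted p = 1.16e-05 by edgeR). Nlrc5, the transactivator of class I genes, rose by 2.80 ± 0.44, the peptide transporter gene Tap1 by 1.38 ± 0.26 and the peptide-trimming Erap1 by 0.77 ± 0.14. Of 14 proteasome genes 10 were higher and 0 lower, with and without replicate 6, among them the activator subunits Psme1 (1.30 ± 0.23) and Psme2 (1.22 ± 0.26), while the immunoproteasome gene Psmb9 did not pass (0.01 ± 0.31). In the class II list 2 of 11 genes were higher and 1 lower, near the shares over all genes tested (14.5% and 10.9%). Cd74, the invariant chain, rose by 2.09 ± 0.33 and Cd86, a costimulator of T cells, by 0.87 ± 0.19, and H2-Ob, an inhibitor of peptide loading, fell (-1.63 ± 0.29).

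Of 7 Fc receptor genes 4 were higher, 1 was lower and 2 were not called. Fcgr4, an activating receptor for immunoglobulin G, lay at 71.8, 153 and 257 CPM after LPS and at 5.29, 3.51, 5.81 and 8.6 CPM after saline, a rise of 4.81 ± 0.33 (adjusted p = 5.75e-13 by edgeR, 4.96 ± 0.29 without replicate 6). Fcgr3 rose by 1.14 ± 0.16, the inhibitory Fcgr2b by 1.10 ± 0.21 and the signalling chain gene Fcer1g by 1.10 ± 0.23. All 7 tested Ms4a genes, a family of tetraspanning membrane proteins, were higher with and without replicate 6. Their median log2 fold change was 4.47, or 3.89 with the 2 members at 0 in all saline libraries put at their bound. Ms4a6d lay at 135, 370.5 and 517 CPM after LPS and at 29.8, 29.8, 25.2 and 20.7 CPM after saline (3.77 ± 0.29, adjusted p = 1.48e-11 by edgeR), and Ms4a6c and Ms4a6b rose by 4.47 ± 0.41 and 2.00 ± 0.35.

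Of 9 TREM and CD300 genes 4 were higher and 2 lower (5 and 2 without replicate 6). Besides Trem1, Cd300lf, a phosphatidylserine receptor, rose by 6.15 ± 0.55 (98.3, 162 and 223 CPM after LPS, 2.89, 1.32, 1.29 and 3.18 CPM after saline) and Treml2 by 2.32 ± 0.22, while the inhibitory Cd300a fell (-0.98 ± 0.23). In the scavenger and phagocytic list 4 of 16 genes were higher and 2 lower, against 14.5% and 10.9% of all genes tested. Msr1 and Marco led the rises, with Axl, a receptor that clears dying cells, at 1.32 ± 0.31. Complement genes were higher in 6 of 15 cases and lower in 0. C4b rose by 4.54 ± 0.66, C3 by 3.03 ± 0.50, the C1q chain gene C1qb by 0.97 ± 0.19 and C5ar1, the receptor for the anaphylatoxin C5a, by 2.67 ± 0.35. All LPS libraries lay above the saline libraries in these 4 complement genes.

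**Figure D4:**
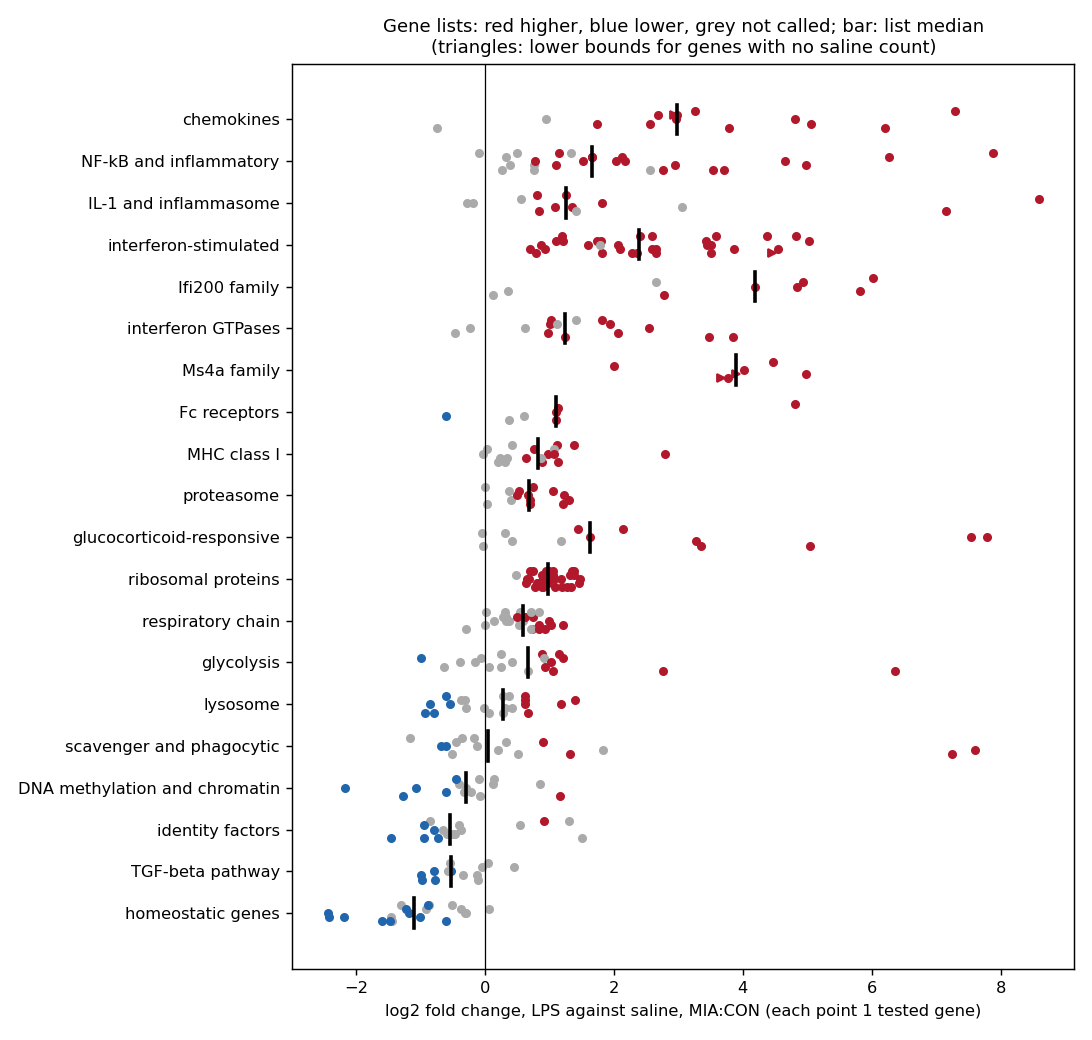
Log2 fold change of LPS against saline in MIA:CON for every tested gene of 20 lists, each point a gene, red where higher, blue where lower and grey where not called, with black bars at list medians and triangles at lower bounds for genes at 0 in all saline libraries. The chemokine, Ifi200 and Ms4a medians lie at 2.97, 4.19 and 3.89, and the homeostatic median at -1.09.

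Genes associated with disease-related states of microglia gave 8 higher and 3 lower of 20. Cd63, a lysosomal tetraspanin, rose by 2.31 ± 0.24 (adjusted p = 1.3e-08 by edgeR), Spp1, a secreted phosphoprotein, by 6.24 ± 0.77, Cst7, a protease inhibitor, by 2.74 ± 0.48 and the ferritin heavy chain gene Fth1 by 2.13 ± 0.36. Fth1 lay at 1041, 2015 and 3099 CPM after LPS and at 563, 499.8, 403 and 391 CPM after saline. In the iron list 5 of 14 genes were higher and 2 lower: Hmox1, which degrades haem, rose by 1.67 ± 0.37, while the iron exporter gene Slc40a1 (-1.56 ± 0.41, -2.13 ± 0.38 without replicate 6) and Ncoa4, which directs ferritin to lysosomes (-0.80 ± 0.14), fell. Lysosomal genes divided, 6 higher and 5 lower of 21 (6 and 6 without replicate 6). The protease genes Ctsl and Ctss rose by 1.18 ± 0.22 and 0.62 ± 0.15, and Hexa, a subunit of beta-hexosaminidase, fell (-0.85 ± 0.23). Cybb, the catalytic subunit gene of the phagocyte oxidase, rose by 4.28 ± 0.53.

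Cytosolic ribosomal protein genes moved together: 34 of 35 were higher and 0 lower, with and without replicate 6, at a median log2 fold change of 0.98 (1.06 without). Rps2 lay at 188, 269 and 431 CPM after LPS and at 103, 108, 107 and 96.5 CPM after saline (1.47 ± 0.30, adjusted p = 0.000474 by edgeR), and Rpl7 did not pass (0.47 ± 0.24). Of 25 respiratory chain genes 10 were higher and 0 lower (12 and 0 without replicate 6), among them Atp5b, a subunit of ATP synthase (1.02 ± 0.18). Of 19 glycolysis genes 8 were higher and 1 lower. Pfkfb3, which raises flux through phosphofructokinase, rose by 2.77 ± 0.53, with 2021 CPM in LPS replicate 1 and 353 to 611 CPM in the other 5, against 119.6, 104, 94.9 and 112 CPM after saline. The glucose transporter gene Slc2a1 rose by 1.03 ± 0.21 and Gapdh by 1.21 ± 0.27. With the 2 mitochondrial ribosomal RNA genes removed before scaling, 1911 genes were higher and 1475 lower.

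Genes that mark unstimulated microglia fell or did not pass. Of 20 homeostatic genes 0 were higher and 10 lower (0 and 14 without replicate 6), with a median log2 fold change of -1.09 (-1.30 without). In bulk RNA, fewer cells of a type and less RNA per cell cannot be told apart. A motif of the transcription factor PU.1, GAGGAAGT, was searched on either strand of the promoters. It was present in 0 of 14 homeostatic genes with a promoter in the table, in 4.44% of all genes lower after LPS and in 3.9% of all genes tested. P2ry12, the ADP receptor used in the sort, lay at 240.5, 444, 378, 389, 398 and 1780.5 CPM after LPS and at 2879.8, 2675, 2786 and 2705 CPM after saline. All LPS libraries were below all saline libraries, with replicate 6 between its group and saline. The change was -2.19 ± 0.32 (adjusted p = 6.98e-06 by edgeR) and -2.90 ± 0.21 without replicate 6. Siglech, a sialic acid receptor, lay at 239, 305 and 764 CPM after LPS and at 977, 1088, 1044 and 1009.9 CPM after saline (-1.48 ± 0.23, -1.82 ± 0.19 without replicate 6). P2ry13, another ADP receptor, fell by 1.18 ± 0.31 and Golm1, a Golgi membrane protein, by 1.01 ± 0.19 on the log2 scale.

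Tmem119, a membrane protein of microglia, lay at 85.3, 330.5 and 621 CPM after LPS and at 857, 854, 729 and 814 CPM after saline (-1.23 ± 0.41, adjusted p = 0.0279 by edgeR), and did not pass without LPS replicate 1, 4 or 5 or saline replicate 1, 2 or 4 (-1.23 to -1.03, adjusted p = 0.0527 to 0.0664). Csf1r, the receptor on which microglia depend for survival, did not pass (-0.30 ± 0.15, adjusted p = 0.133, 0.112 without replicate 6), nor did Cst3, cystatin C (0.07 ± 0.21). Cx3cr1, the fractalkine receptor, lay at 1176, 1356 and 1278 CPM in LPS replicates 2, 3 and 6, at 118, 146 and 199.6 CPM in replicates 1, 4 and 5, and at 1731, 1969.6, 1608 and 1729 CPM after saline. Every LPS library was below every saline library, and the test was not passed (-1.30 ± 0.59, adjusted p = 0.104, 0.0575 without replicate 6, by edgeR). By limma voom Cx3cr1 was lower (-1.75, adjusted p = 0.00658), as was Csf1r (-0.30, adjusted p = 0.0383).

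The genes named for the largest falls in MIA:CON were of varied function. They were chosen as the rises were, with LPS replicates 1 to 5 required to lie below all saline libraries. Upk1b, a tetraspanin-family membrane protein, lay at 1.22, 2.47 and 20.9 CPM after LPS and at 64.7, 59.7, 55.2 and 50.6 CPM after saline (-3.18 ± 0.44, adjusted p = 3.41e-06 by edgeR, -4.28 ± 0.39 without replicate 6). Gpr34, a lysophosphatidylserine receptor, lay at 469 CPM in LPS replicate 6 and at 2.37 to 101 CPM in replicates 1 to 5, against 656, 642, 587 and 576 CPM after saline. Its change was -2.43 ± 0.72 (adjusted p = 0.0136) and -3.86 ± 0.65 without replicate 6. Gpr34 did not pass when the 10 libraries were fitted alone (-2.47, adjusted p = 0.0593). Slc2a5 lay at 104 CPM in LPS replicate 6 and at 4.63 to 21.9 CPM in replicates 1 to 5, against 142, 161, 149 and 137 CPM after saline. In each of these genes replicate 6 was the LPS library nearest to saline and still lay below the saline range. Replicates 1 to 5 lay below it by the choice of genes. The matrix protein gene Npnt changed by -2.52 ± 0.49 on the log2 scale (-3.65 ± 0.42 without replicate 6), the microtubule-associated Tppp by -2.57 ± 0.50 (-3.25 ± 0.49) and Nav2, a neuron navigator, by -2.38 ± 0.45 (-3.02 ± 0.41). The talin gene Tln2 changed by -2.31 ± 0.53 (-2.89 ± 0.53 without replicate 6) and the semaphorin gene Sema4g by -2.26 ± 0.30 (-2.86 ± 0.25). Tspan18, another tetraspanin, changed by -2.40 ± 0.69 and by -3.61 ± 0.69 without replicate 6.

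Factors and signals that maintain microglial identity fell in part. Of 16 transcription factor genes 1 was higher and 5 lower (2 and 8 without replicate 6). Sall1, which holds the microglial programme, lay at 110.2, 219 and 714 CPM after LPS and at 971, 754, 887 and 866 CPM after saline (-1.46 ± 0.39, adjusted p = 0.00549 by edgeR, -1.88 ± 0.37 without replicate 6), and Mef2c changed by -0.95 ± 0.20. Runx1 was the member that rose (0.92 ± 0.18, 570.2, 791 and 1139 CPM after LPS and 463, 401, 426 and 431 CPM after saline). Of 13 TGF-beta pathway genes 0 were higher and 5 lower (1 and 8 without replicate 6). The receptor gene Tgfbr1 lay at 758, 972 and 1684 CPM after LPS and at 2154, 1858, 2115 and 2161 CPM after saline (-0.98 ± 0.20, adjusted p = 0.000467 by edgeR), and the ligand gene Tgfb1 changed by -0.78 ± 0.24. Nrros, which anchors latent TGF-beta on microglia, did not pass (-0.04 ± 0.28). Of 9 purinergic genes 2 were higher and 3 lower (2 and 4 without replicate 6). The ectonucleotidase gene Entpd1 fell (-1.14 ± 0.31), while P2ry6, a UDP receptor, did not pass (0.18 ± 0.29).

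In the list of DNA methylation and chromatin regulators 1 of 15 genes was higher and 5 were lower, with and without replicate 6. Tet1, which oxidises methylcytosine, lay at 2.37, 6.52 and 23.8 CPM after LPS and at 30.6, 43.4, 42.6 and 46.8 CPM after saline (-2.16 ± 0.31, adjusted p = 5.52e-06 by edgeR, -2.80 ± 0.26 without replicate 6), and the methyltransferase gene Dnmt3a changed by -1.07 ± 0.23. Kdm6b, a histone H3 lysine demethylase, rose by 1.17 ± 0.32. Slc12a2, a sodium, potassium and chloride cotransporter, fell (-1.86 ± 0.21, -2.21 ± 0.16 without replicate 6), and Srgap2, a regulator of membrane protrusion, fell (-1.32 ± 0.17), while Lrrc8a, a subunit of volume-regulated anion channels, rose (1.504 ± 0.18).

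Glucocorticoid-responsive genes were higher in 8 of 13 cases and lower in 0, with and without replicate 6, at a median log2 fold change of 1.63. The mean log2 CPM of the list was 7.69, 6.72, 5.78, 7.70, 7.67 and 6.94 in LPS replicates 1 to 6 and 4.98, 4.97, 4.87 and 4.61 in saline replicates 1 to 4. Replicate 3 was the lowest of the LPS libraries, and all 6 were above saline. Zbtb16, a zinc finger transcription factor induced by glucocorticoids, lay at 192, 173 and 209.7 CPM in LPS replicates 1, 4 and 5, at 15.5, 2.85 and 55.6 CPM in replicates 2, 3 and 6, and at 1.68, 0, 0 and 0 CPM after saline (7.55 ± 1.36, adjusted p = 0.000179 by edgeR). It was at least 267-fold higher without saline replicate 1, the only saline library above 0. The metallothionein gene Mt2 varied in the same libraries, with 654, 196 and 213 CPM in replicates 1, 4 and 5 and 17.1, 5.3 and 37.6 CPM in replicates 2, 3 and 6, against 0.481, 1.32, 1.29 and 0.318 CPM after saline (7.80 ± 1.73). Neither Zbtb16 nor Mt2 passed by limma voom with quality weights (adjusted p = 0.0722 and 0.0543). Klf9 rose by 5.05 ± 0.73, the cell cycle inhibitor Cdkn1a by 3.35 ± 0.50 and the glucocorticoid receptor cochaperone Fkbp5 by 2.14 ± 0.35, while the kinase gene Sgk1 did not pass (-0.03 ± 0.28).

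The LPS libraries of the same label differed from each other in other genes too, named here after their values were seen. Il1a, Ccl7 and Ccl12 were highest in replicates 2 and 3, as Il1b and Ccl2 were. Ccl7, a monocyte attractant, lay at 19.1 and 14.7 CPM in those libraries and at 0 to 1.76 CPM in the other 4, against 0.241, 0.439, 0 and 0 CPM after saline. Ccl12, of the same class, lay at 525 and 548 CPM in replicates 2 and 3 and at 25.9 to 124 CPM in the other 4, against 18.8, 14.5, 9.36 and 23.9 CPM after saline (3.78 ± 1.06). Il1a, the precursor of interleukin 1 alpha, lay at 1220.3 and 1275 CPM in replicates 2 and 3 and at 146 to 445 CPM in the others, against 418, 123, 124 and 207 CPM after saline, and did not pass (1.42 ± 0.85). Csf3r, the receptor for granulocyte colony-stimulating factor, lay at 436, 390.2 and 269 CPM in replicates 2, 3 and 6 and at 69.9, 72.9 and 129.7 CPM in replicates 1, 4 and 5, against 368, 376, 340.2 and 367 CPM after saline, and did not pass (-0.67 ± 0.45). Replicate 1 alone was high in the cystine transporter gene Slc7a11 (729 CPM, 12.9 to 88.0 in the other LPS libraries), the superoxide dismutase gene Sod2 (786 CPM, 60 to 158) and Acod1, which makes itaconate (136 CPM, 1.75 to 22.8). Without replicate 1 Slc7a11 (3.32, adjusted p = 0.0768 by edgeR) and Acod1 (4.69, adjusted p = 0.0958) did not pass, nor did Acod1 without saline replicate 1, 3 or 4. Replicate 1 also had the lowest total of the 10 libraries, whose part in these values was not tested.

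**Figure D5:**
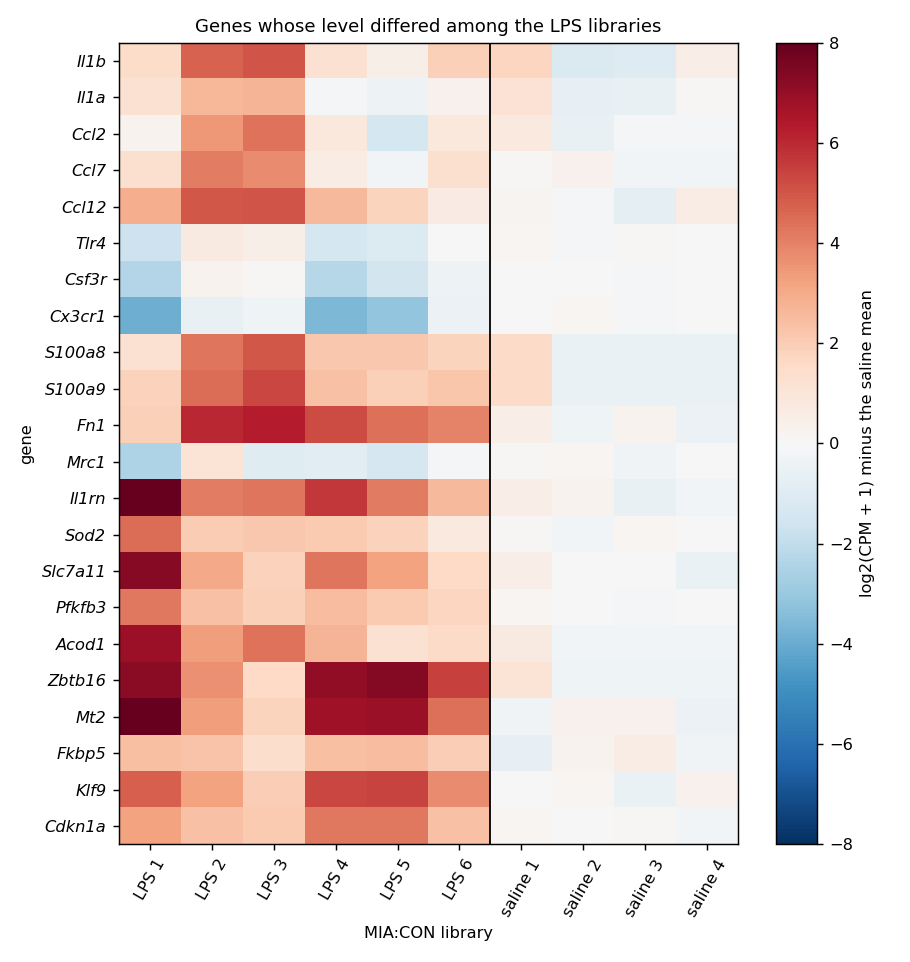
Log2(CPM + 1) minus the saline mean for 22 genes (rows) in each MIA:CON library (columns, LPS left of the line, saline right). Il1b, Ccl2, Ccl12 and S100a9 are highest in LPS replicates 2 and 3, Zbtb16, Mt2, Klf9 and Cdkn1a in replicates 1, 4 and 5, and Il1rn, Slc7a11, Sod2, Pfkfb3 and Acod1 in replicate 1.

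Single marker genes of monocytes and neutrophils were higher after LPS. In the summed levels of both lists every LPS library exceeded every saline library, while the difference of means did not pass after adjustment. The summed level of 8 monocyte markers ran from 29.6 to 168 CPM in the LPS libraries and from 4.39 to 12.03 in the saline libraries (exact permutation p = 0.0333, adjusted over 12 quantities 0.133, two-sided), and 6 of 7 tested members were higher. That of 9 neutrophil markers ran from 11.8 to 144 CPM in the LPS libraries and from 0.318 to 7.94 CPM in the saline libraries (p = 0.11, adjusted 0.32, exact permutation), with 5 of 6 tested members higher. Both were highest in LPS replicates 2 and 3, the libraries with the most Il1b, Ccl2 and Ccl12. Fn1, fibronectin, lay at 122 and 139.9 CPM in those libraries, at 5.92 to 67.1 in the other LPS libraries and at 1.68, 0.439, 1.29 and 0.318 CPM after saline. S100a9, a neutrophil calcium-binding protein, lay at 31.2 and 57.9 CPM in replicates 2 and 3, at 4.15 to 6.17 CPM in the other LPS libraries and at 3.13, 0, 0 and 0 CPM after saline. Of the defining markers, Ly6c2 of inflammatory monocytes lay at 0 to 3.47 CPM after LPS, with 0 counts in saline, and Ly6g of neutrophils was above 0 in LPS replicate 3 alone (2.04 CPM). The saline value of S100a9 rests on replicate 1, and without LPS replicate 3 (3.43) or saline replicate 2, 3 or 4 (3.83 to 3.91) it did not pass, while without saline replicate 1 it was at least 54.2-fold higher. Ccr2, the chemokine receptor that defines inflammatory monocytes, lay at 0.592, 1.27 and 6.76 CPM after LPS and at 6.5, 2.19, 9.68 and 6.37 CPM after saline, not called with all libraries (-1.11 ± 0.52) and lower without replicate 6 (-1.61 ± 0.55, adjusted p = 0.0226 by edgeR).

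Border-associated macrophage markers summed to 7.70 to 203 CPM after LPS, highest in replicate 2, and to 35.5 to 53.4 CPM after saline. Endothelial and mural markers summed to 23.6 to 38.2 CPM after LPS and to 38.2 to 54.6 CPM after saline (exact permutation p = 0.0143, adjusted 0.0857, and p = 0.00794, adjusted 0.0476, without replicate 6). Of 6 tested border macrophage and 5 tested endothelial markers 0 were called, and without replicate 6 1 of the border macrophage markers was higher and 1 of the endothelial markers lower. Astrocyte markers summed to 81.8 to 178 CPM after LPS and 54.1 to 136 CPM after saline, with 1 of 6 higher. Neuronal markers summed to 18.3 to 77.3 CPM after LPS and 24.8 to 58.2 CPM after saline, and oligodendrocyte lineage markers to 67.3 to 105 CPM after LPS and 72.3 to 112 CPM after saline, with 0 called. Lymphocyte markers summed to 0.408 to 2.18 CPM after LPS and 0.637 to 0.968 CPM after saline, and Cd8a, Nkg7 and Ncr1 were at 0 in all 10 libraries. Erythroid markers summed to 0.281 to 8.23 CPM after LPS and 0 to 14.04 CPM after saline (exact permutation p = 0.533, adjusted 0.8, two-sided). The 8 genes of the sort gate and the microglial label summed to 8150.5 to 14222 CPM after LPS and 16254 to 18302 CPM after saline. The part of these markers in the chemokine, cytokine and complement results was not tested.

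The same contrast in mice without prenatal MIA (CON:CON, 4 LPS and 4 saline libraries, no library shared with MIA:CON) gave 1841 higher (13.7%) and 1321 lower (9.84%) genes. Of the genes higher in MIA:CON, 1307 were also higher in CON:CON (67.3% of those in MIA:CON, 71% of those in CON:CON), and of the lower genes 916 (62.7% and 69.3%). Without replicate 6 the shared genes were 1403 (61.7% and 76.2%) and 1019 (52.7% and 77.1%), and 0 genes were called in opposite directions. The difference between the 2 responses was tested as an interaction. It passed for 0 of 13420 genes by edgeR, with 415 genes at an unadjusted p under 0.05, and for 0 of 13356 without replicate 6, with 500. DESeq2 and limma voom also gave 0, with 493 and 448 genes at an unadjusted p under 0.05. All these counts lie under a share of 0.05 of the genes tested, the share expected if no gene differed. A difference that misses the threshold does not show that the responses were equal: for P2ry12 it was 0.89 ± 0.48 on the log2 scale (MIA:CON response -2.19, CON:CON response -3.08) and 0.18 ± 0.29 without replicate 6, for Il1b -2.08 ± 1.57 (3.05 and 5.14) and for Ifitm3 0.10 ± 0.96 (5.03 and 4.93).

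Interaction genes were ranked among those with an average log2 CPM of 4 or more, predicted genes without a name left out. The smallest p of each sign belonged to Hypk and Gnptab. Hypk, a chaperone linked to protein acetylation, rose in MIA:CON (0.60 ± 0.22) against -0.59 in CON:CON (unadjusted p = 0.00055, adjusted p = 1 by edgeR). Gnptab, which tags lysosomal enzymes, stood at 0.09 in MIA:CON and 0.90 in CON:CON (unadjusted p = 0.00125, adjusted p = 1). Hypk was no longer higher in MIA:CON without LPS replicate 1, 4 or 5 or saline replicate 1, 3 or 4 (0.53 to 0.61, adjusted p = 0.0723 to 0.112 by edgeR). Gadd45g, a stress-response gene, stood at 0.51 and -1.92, and the SNARE gene Stx6 at -0.51 (-0.58 ± 0.22 without replicate 6, adjusted p = 0.0437 by edgeR) and 0.54.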

How the data were processed

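RNA of sorted striatal microglia was sequenced as 39 libraries. The authors' deposited table holds estimated counts per gene, not scaled to library size, and the submitters' processing notes name STAR, RSEM and DESeq2. Neither build, annotation nor versions are stated in the sources at hand. Gene symbols were matched to 55227 of 55487 identifiers. Counts were rounded to whole numbers and tested with edgeR 4.0.16 (R 4.3.3; quasi-likelihood, robust, TMM, at least 10 counts by filterByExpr) over 37 libraries, without the pair whose titles say exclude, with 1 mean for each of 8 groups. P-values were adjusted by the Benjamini-Hochberg method across every gene tested, with calls at 0.05, two-sided. CPM uses TMM-adjusted totals. Single library quantities were compared by exact permutation of 210 relabelings (smallest p 0.0047619). Without LPS replicate 6 there were 126 relabelings, and the p of 0.00794 given for that exact permutation is the smallest possible. DESeq2 1.42.0 and limma 3.58.1 served as alternatives. The procedure was tested on simulated data. Amplification kept no strand, so reads of a gene and of its antisense partner cannot be told apart. Totals of 1837849 to 4484878 counts per library set the counting error.

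Genes were named by a rule: the 12 rises and 12 falls largest in fold change among genes called with and without LPS replicate 6, whose average log2 CPM was 4 or more, and LPS replicates 1 to 5 apart from saline; in each list the 4 smallest p and the largest; the 5 smallest interaction p of each sign; and genes of the sort and of standard interest. The interaction genes, too, had an average log2 CPM of 4 or more. Predicted genes without a name were skipped in the rises, the falls and the interaction genes. Values of a part of the genes named by the rule are printed. The comparison, lists and rule were chosen with earlier results of these data known.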

Additional observations from a re-analysis of the deposited data

Results flagged for a closer look

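In 30 of 446 groups of values examined (6.73%) the highest or the lowest library stood far from the other libraries of its label. Chance marks about 1 in 20 such groups. LPS replicate 6 was the library in 9 cases and saline replicate 1 in 10.

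LPS replicate 6 was the highest LPS library for P2ry12 (1780.5 CPM, others 240.5 to 444), Siglech (764 CPM, 239 to 343), Slc12a2 (119 CPM, 40.1 to 53.3) and H2-Ob (19.7 CPM, 6.55 to 9.65). It was the lowest for Atp5b (223 CPM, 303 to 355), Erap1 (84.7 CPM, 121 to 142), Ms4a6d (134.7 CPM, 325 to 517) and Slc2a1 (65.9 CPM, 93.0 to 106), and in mean log2 CPM of genes higher in the other 3 arms (4.44, 4.95 to 5.20). In each of these 9 cases it lay between the other LPS libraries and the saline mean.

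LPS replicate 1 was highest for Irak3 (94.8 CPM, others 9.41 to 18.9), Pfkfb3 (2021 CPM, 353 to 611) and the mean log2 CPM of the cholesterol list (4.26, 3.82 to 3.97). LPS replicate 2 was highest for C1qb (4779 CPM, others 2403 to 3057) and the TREM and CD300 list (6.08, 5.16 to 5.49).

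Saline replicate 1 was the only saline library above 0 for Saa3 (2.65 CPM), S100a8 and S100a9 (3.13 CPM each), Zbtb16 (1.68 CPM), Acod1 (0.963 CPM) and Marco (0.481 CPM). It was also the highest saline library for Spp1 (2.41 CPM, others 0.318 to 0.439), the summed neutrophil markers (7.94 CPM, 0.318 to 0.439), the mean log2 CPM of the neutrophil list (0.51, -0.64 to -0.61) and that of the immediate early list (7.76, 6.35 to 6.50).

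Among the other saline libraries, replicate 2 was lowest for Tgfbr1 (1858 CPM, 2115 to 2161), and replicate 3 was highest for H2-Ob (43.9 CPM, 27.2 to 27.4). Replicate 4 was lowest in mean log2 CPM of the ribosomal list (6.69, 7.05 to 7.11) and the LPS-sensing list (5.81, 5.91 to 5.93), and highest in that of the other Toll-like receptors (6.36, 6.14 to 6.17) and the cholesterol list (3.43, 3.30 to 3.33).

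The library titled as MIA:PLX saline replicate 1 and marked for exclusion stood at 4.27 in mean log2 CPM of genes higher after LPS in the other 3 arms, against 3.11 to 3.13 in the other saline libraries of MIA:PLX. On the lower genes it stood at 4.78, against 5.14 to 5.19.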

How the results depend on the processing

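Fitted on the 10 libraries alone, 2228 genes were called, 1246 of them higher. RLE size factors, no filter, DESeq2, limma voom with quality weights, the libraries marked for exclusion put back, and mitochondrial ribosomal RNA removed gave 2542 to 3859 genes, and the share of higher genes among called ones lay between 49.1% and 59.6% over all settings, against 57.0%. Leaving out 1 library gave 2586 genes (without saline replicate 3) to 4206 (without LPS replicate 6), 1480 to 2274 of them higher and 1106 to 1932 lower. The interaction gave 0 genes in every setting run, with 316 to 1082 at an unadjusted p under 0.05. The 1082 came from the unfiltered fit of 28950 genes, also a share under 0.05. Without LPS replicate 6, RLE size factors, no filter, DESeq2 and voom gave 3376 to 5071 genes, alternatives chosen after seeing the data. Of 157 named genes 0 changed sign past the threshold under any setting. DESeq2 kept the call of 151 of 154, voom of 147 of 157 and the unfiltered fit of 149 of 157, with 0, 7 and 8 no longer called. The cause of these differences was not tested. At these depths a gene at 0 in saline, such as Cxcl1, has only a lower bound on its fold change.

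The labels do not say what the replicate numbers stand for. Same-numbered LPS and saline libraries correlated at -0.01, 0.02, -0.07 and 0.06 in their deviations from group means. Of the saline libraries, 1 of 4 correlated best with the LPS library of its own number. So few correlations cannot decide whether a number marks a shared origin. With the replicate number as a block over replicates 1 to 4, 2244 genes were called, 1102 of them higher, against 2622 and 1355 without the block in the same 8 libraries, a fit chosen after seeing the data. A fit of all 37 libraries with the block gave 3696. An LPS library without a saline library of its number in MIA:CON, such as replicate 6, adds nothing to a contrast within such blocks. In that fit Gpr34 changed by -4.28 and Slc2a5 by -3.76, near the -4.34 and -3.81 of the block over replicates 1 to 4. With all libraries and no block they changed by -2.43 and -2.42. The 3696 is therefore not a count that includes replicate 6.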
